A study of Mus musculus with 3 samples.

Results

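Cluster 1 of the deposited single-nucleus ATAC-seq profiles of mouse embryos is a mesenchyme-like cluster, and its accessible chromatin was compared between embryonic days E13.5 and E15.5. Its members were the nuclei with cluster number 1 in the deposited cell table, namely 125 of the 970 E13.5 nuclei plus 120 of the 756 E15.5 nuclei, which makes 245 of 1879 in the series (10 further cluster 1 nuclei at E12.5 are given as values only). Both libraries came from wild-type (WT) C57BL/6JRj embryos that were littermates of those used for spatial maps, with no treatment. For each stage a few frozen sections, chosen to match the landmarks of the mapped sections, were dissociated, and nuclei stained with 7-AAD were sorted and run on the 10x droplet chemistry. ATAC-seq uses the transposase Tn5, which inserts adapters into open DNA, so the number of sequenced fragments over a gene measures how open it is and not how much RNA it makes.

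There was 1 library per stage. No test between stages was therefore possible, and every difference below compares 2 libraries with no replicate check. Each ratio of E15.5 to E13.5 carries a 95% interval for counting error only. A feature was called higher or lower when its ratio was at least 1.5-fold, and the same gene in the neuron-like cluster 0 of the same libraries (87 and 172 nuclei) is given beside most genes that were called. Cluster 6 (76 and 50 nuclei) served as a second reference, since clusters 0 and 6 did not move alike for many genes named here. In a sum over nuclei, more nuclei that use a gene and more use per nucleus cannot be told apart.

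Embryonic mesenchyme is the loosely packed tissue that gives rise to fibroblasts, cartilage, bone, tendon and smooth muscle. Between these stages it lays down collagen-rich matrix and divides into organ-specific stroma, while Hox transcription factors keep a record of position along the trunk and limbs. Accessibility at promoters and at distal elements far from any start site is set by transcription factors that bind short DNA letters such as E-boxes.

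The marker genes describe the label and do not test it, because the cluster and the gene lists were chosen with earlier results known. All 8 mesenchyme markers were more accessible in cluster 1 than in the nuclei outside clusters 1 to 4, so clusters 2 to 4 were not compared. At E13.5 the ratio ran from 1.61 for Emp3 to 5.08 for Col3a1, and at E15.5 from 1.95 for Twist2 to 4.93 for Col3a1. Twist1, a factor of mesenchyme identity, was at 4.93 times (95% interval 4.13 to 5.89) and 4.52 times (3.71 to 5.51) the level of those nuclei.

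The cluster 1 sums held 8187129 autosomal fragments in the E13.5 library (median 64094 fragments per nucleus) and 6071845 in the E15.5 library (median 48173.5). Fragments at annotated starts made up 11.98% at E13.5 and 13.8% at E15.5, and cluster 0 had 9.33% and 10.8%. The labels do not give the sex of the embryos and Y chromosome fragments differed, so only autosomes were compared.

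Some barcodes in both libraries were linked, meaning that they shared fragments with identical ends with another barcode. The shared fragments made up at least 10% of those of the smaller barcode of the pair. At E15.5, 9 of the 120 cluster 1 barcodes were linked, and at E13.5, 3 of 125. The 9 barcodes at E15.5 held 5.36% of the autosomal fragments but 10.2% of those in the distal bins that were higher at E15.5. They had a median of 5.57% of fragments at starts, against 15.97% in the other 111 nuclei. The 3 linked barcodes at E13.5 went the other way, with 21.2% against 11.8% in the other 122 nuclei. Counts over all features are therefore also given without linked barcodes, as are list counts that change without them, and named features that rest on them are pointed out. The part of these barcodes in the cluster was not tested further.

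**Figure D1:**
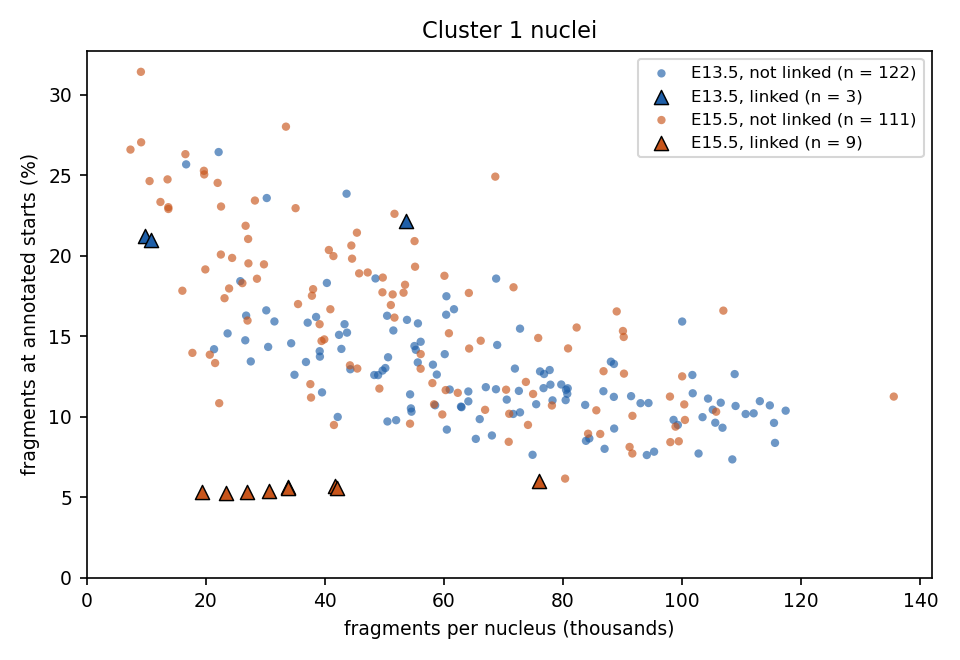
Each point is 1 cluster 1 nucleus, with its fragment count (in units of 1000) on the x axis and its share of fragments at annotated starts (percent) on the y axis. Blue is E13.5 and orange E15.5. Triangles are linked barcodes, and the 9 at E15.5 lie between 5.25% and 5.99%.

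Over 14890 autosomal genes tested (at least 100 fragments over the gene body and 2 kb upstream), 342 were higher at E15.5 (2.3% of those tested) and 802 were lower (5.39%). Without linked barcodes the counts were 289 (1.95%) and 767 (5.18%) of 14818, and 214 of the 342 and 653 of the 802 were called in both. With all nuclei, 34 of the 342 and 101 of the 802 had an interval wholly past the fold. The median log2 ratio over all genes tested was -0.0015. With each nucleus thinned to at most 20000 fragments, 10241 genes were tested, of which 381 were higher and 414 lower. Then 47.9% of the calls were higher, against 29.9% with all fragments. The same genes were then read in cluster 0, where 2.79% of the 14669 genes tested in both clusters were higher and 3.32% lower. Of 327 genes higher in cluster 1, 17 (5.2%) were higher there and 24 (7.34%) lower. Of 775 lower genes, 39 (5.03%) were higher in cluster 0 and 68 (8.77%) lower. With the cluster 1 ratio divided by the cluster 0 ratio, 218 of the 327 and 507 of the 775 were past the fold. These genes were chosen on the same cluster 1 ratio, so such net counts are no separate support. Over all genes, 991 ratios net of cluster 0 were higher (6.76%) and 1366 lower (9.31%), so most of these genes were not called in cluster 1 itself. Net of cluster 6, 139 of 233 higher and 334 of 553 lower genes were past the fold. Over all 13144 genes tested in clusters 1 and 6, 1109 were higher and 1242 lower net of cluster 6.

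**Figure D2:**
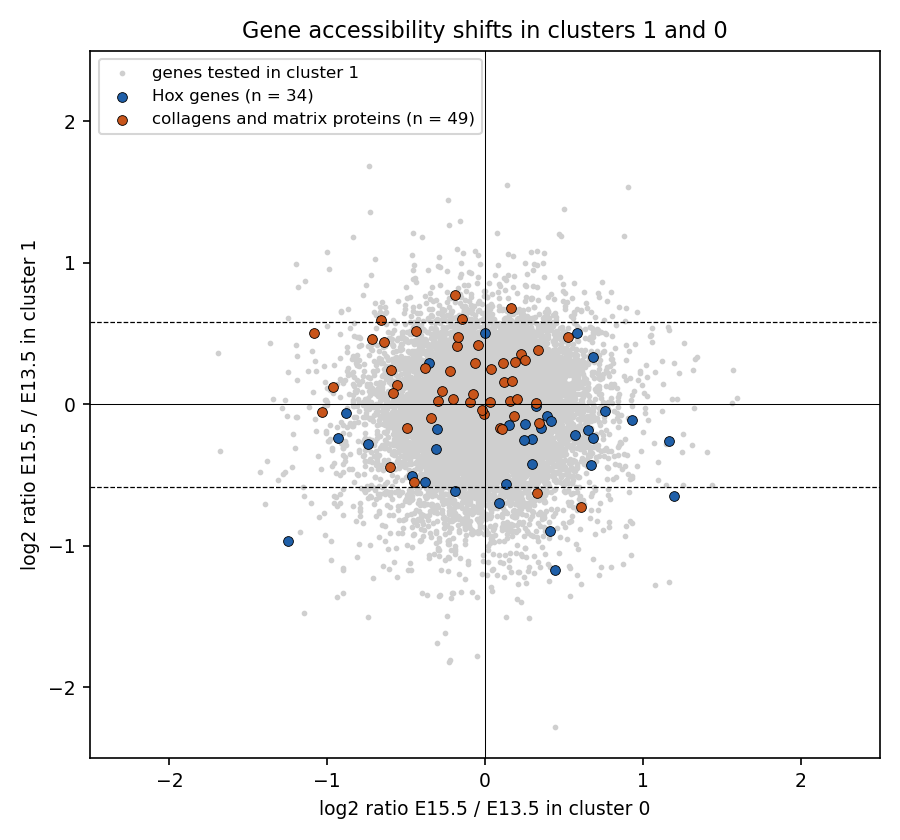
Each grey point is a gene, with its log2 ratio of E15.5 to E13.5 in cluster 0 on the x axis and in cluster 1 on the y axis. Blue points are Hox genes and orange points collagens and matrix proteins. Dashed lines mark a 1.5-fold change in cluster 1.

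Genes for collagens and other matrix proteins were mostly above a ratio of 1. Of 49 tested, 4 were called higher and 2 lower (4 and 1 without linked barcodes), and 20 had an interval wholly above 1 against 4 wholly below it. That is 8.16% called higher, beside 2.3% of all genes tested. How many of all genes tested had an interval wholly above or below 1 was not counted. The interval counts of this list and the lists below thus have no background beside them. The summed level of the list was 4306 CPM at E13.5 and 4917 CPM at E15.5, a ratio of 1.14 (1.12 to 1.17), while it was 0.897 (0.874 to 0.921) in cluster 0 and 1.07 (1.03 to 1.11) in cluster 6. CPM are fragments per 1000000 gene fragments of the sum. The ratio lay between 1.12 and 1.17 under every alternative run for list sums.

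Col1a1, the main chain of type I collagen (mm10 chr11:94936224-94953042), had 585 fragments at E13.5 and 671 at E15.5. Its level was 119 CPM at E13.5 and 180 CPM at E15.5, a ratio of 1.51 (1.35 to 1.69), and 118 CPM at E12.5. In cluster 0 it went the other way, to 0.634 (0.513 to 0.783), so the shift net of cluster 0 was 2.38 (1.87 to 3.03). In cluster 6 it was at 1.26 (0.995 to 1.59), and the shift net of cluster 6 was 1.20. Lox, which crosslinks collagen and elastin, was at 1.71 (1.39 to 2.09), with 0.875 in cluster 0 and 1.42 (0.741 to 2.66) in cluster 6. Nid1, a basement membrane glycoprotein, was at 1.60 (1.39 to 1.85), with 1.12 in cluster 0 and 1.5 (1.14 to 1.98) in cluster 6. Its ratio was under the fold net of either cluster, at 1.43 and 1.07. Postn, a matrix protein of periosteum and ligament, was at 1.52 (1.23 to 1.88), with 0.903 in cluster 0 and 1.22 (0.723 to 2.02) in cluster 6. Net of cluster 6 all 4 called matrix genes were under the fold, with Lox at 1.20 and Postn at 1.25. Nid1 drew 16.4% of its E15.5 fragments from 1 nucleus, and no linked barcode added to it.

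Several other collagens stayed just under the fold. Col1a2, the second chain of type I collagen, was at 1.43 (1.24 to 1.64), Col14a1 at 1.39 (1.27 to 1.52) and Col5a1, which nucleates collagen fibrils, at 1.33 (1.24 to 1.43). Col6a2, a chain of beaded-filament collagen VI, was at 1.42 (1.22 to 1.65) in cluster 1 and at 0.473 (0.37 to 0.603) in cluster 0, a net shift of 3.0 (2.25 to 4.0), against 1.94 net of cluster 6. The opposite direction was seen for Mfap5, a microfibril protein, which was at 0.604 (0.452 to 0.802) in cluster 1, 1.52 (1.12 to 2.09) in cluster 0 and 0.801 (0.51 to 1.23) in cluster 6. P4ha3, a prolyl hydroxylase that modifies collagen, was at 0.647 (0.549 to 0.76), with 1.26 in cluster 0 and 1.21 in cluster 6.

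Marker genes of mesenchyme, some of which are matrix genes too, did not all move together. Pdgfra, a growth factor receptor of mesenchyme, was at 1.37 (1.22 to 1.53), with 0.652 (0.553 to 0.769) in cluster 0 and 1.45 (1.16 to 1.81) in cluster 6. Net of cluster 0 it was therefore at 2.10, and net of cluster 6 at 0.943. The summed level of the 8 markers was at 1.20 (1.15 to 1.26) in cluster 1, 0.88 in cluster 0 and 1.29 (1.16 to 1.43) in cluster 6. Emp3 was at 1.41 (1.20 to 1.66), of which 37 of 317 fragments at E15.5 came from linked barcodes. Prrx1, a limb and face mesenchyme factor, had an interval below 1, at 0.845 (0.752 to 0.948). Twist1 was at 1.13 (0.936 to 1.36), which does not differ from 1 beyond counting error.

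Of 27 transcription factors of mesenchyme tested, 1 was called higher and 1 lower (3.7% each, beside 2.3% and 5.39% of all genes). Of their intervals, 10 lay above 1 and 4 below it, with no share over all genes beside these counts. Foxc1, needed for skull and vessel mesenchyme, was at 1.53 (1.23 to 1.90), with 1.01 in cluster 0 and 0.907 in cluster 6. Foxf1 and Foxf2, factors of gut and palate mesenchyme, were at 1.43 (1.12 to 1.83) and 1.45 (1.08 to 1.95), with 17 of 138 and 19 of 98 of their E15.5 fragments from linked barcodes. Zeb2, a zinc-finger repressor, was at 1.34 (1.21 to 1.5), with 0.811 (0.735 to 0.895) in cluster 0 and 1.03 (0.915 to 1.16) in cluster 6. Its relative Zeb1 was at 1.26 (1.12 to 1.42), and Snai2 at 1.35 (1.03 to 1.77). Snai1 was at 0.804 (0.665 to 0.97). The 4 nuclear factor I genes, which regulate stromal differentiation, were between 1.05 and 1.19 between 0.752 and 0.917 in cluster 0 and between 0.914 and 1.16 in cluster 6.

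Hox genes were mostly below a ratio of 1. Of 34 tested, 6 were called lower and 0 higher, 12 intervals lay below 1 and 1 above it. That is 17.6% called lower, beside 5.39% of all genes tested, while the interval counts have no such share beside them. The median log2 ratio was -0.24 over the 34 genes in cluster 1. In cluster 0 it was 0.25 over the 25 of them with at least 100 fragments there, of which 5 were higher and 4 lower. The summed level was 1398 CPM at E13.5 and 1155 CPM at E15.5, a ratio of 0.826 (0.795 to 0.858), whereas it was 1.13 (1.07 to 1.19) in cluster 0 and 1.26 (1.17 to 1.36) in cluster 6. Of the 34 genes, 7 had at least 100 fragments in cluster 6. At E12.5, from 10 nuclei, the summed level in cluster 1 was 744 CPM. The ratio lay between 0.81 and 0.846 under every alternative run for list sums.

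The called genes were Hoxc11, Hoxb9, Hoxb7, Hoxc9, Hoxd10 and Hoxc10, which pattern the trunk and limbs at levels from the thorax to the hind limb. Hoxc11 went from 98 to 33 fragments (0.443, interval 0.289 to 0.664) in 43 and 23 nuclei. Hoxd10 was at 0.636 (0.434 to 0.922) in cluster 1, and at 0.675 without linked barcodes. It was at 2.30 (1.34 to 4.16) in cluster 0, from 17 and 73 fragments, and at 0.671 (0.277 to 1.48) in cluster 6. Hoxb9 was lower in clusters 1 and 0, at 0.512 (0.369 to 0.702) and 0.421 (0.287 to 0.616), and at 0.6 (0.296 to 1.14) in cluster 6. Net of clusters 0 and 6, Hoxc11 was at 0.326 and 0.278 and Hoxb7 at 0.404 and 0.58, past the fold in both. Hoxc9 (0.582 and 0.865), Hoxc10 (0.747 and 0.582) and Hoxd10 (0.277 and 0.948) were past it net of 1 reference only. Hoxb9 (1.2 and 0.853) was past it net of neither. Hoxc5, whose annotated span overlaps its neighbours, was at 0.677 (0.605 to 0.757). Hox genes lie close together, so neighbouring genes share fragments and are not independent. Of 23 Hox promoters tested, 9 were lower and 0 higher, beside 8.25% and 4.07% of all promoters tested. Scaled by all autosomal fragments, 8 were lower and 1 higher, beside 4.13% and 11.4%. The axial level that the nuclei came from was not tested.

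**Figure D3:**
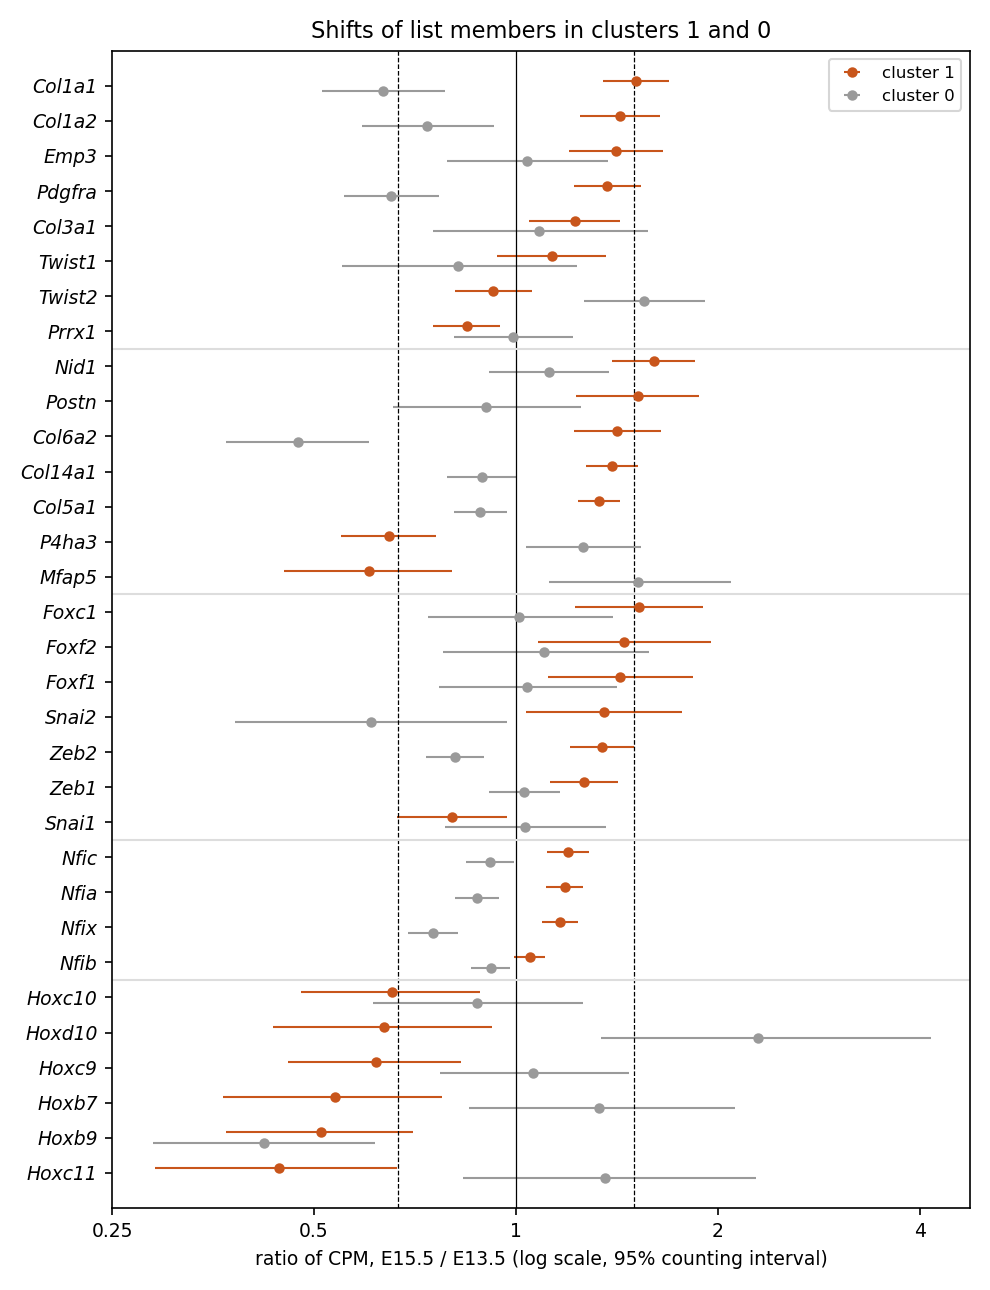
Points are ratios of CPM at E15.5 to E13.5 on a log axis, with 95% counting intervals, for mesenchyme markers, matrix genes, transcription factors, nuclear factor I genes and the 6 Hox genes called lower (top to bottom blocks). Orange is cluster 1 and grey cluster 0. Dashed lines mark 1.5-fold in either direction.

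Lists of signalling pathways had single members past the fold, in shares mostly near the 2.3% higher and 5.39% lower of all genes tested. In the TGF-beta and BMP list 2 of 43 were higher (4.65%) and 3 lower (6.98%), and 2 and 2 without linked barcodes. Its summed ratio was 1.08 (1.06 to 1.1), with 0.976 in cluster 0 and 1.08 (1.05 to 1.11) in cluster 6. Id2, a target of BMP signals, was at 1.52 (1.31 to 1.77), with 1.18 in cluster 0 and 1.69 (1.31 to 2.17) in cluster 6, and so at 1.29 and 0.902 net of them. Tgfbi was at 0.576 (0.491 to 0.673), with 1.15 in cluster 0 and 1.13 in cluster 6. The BMP antagonist Grem1 was at 0.618 (0.425 to 0.886), with 1.19 in cluster 0 and 1.02 in cluster 6. In the Wnt list 1 of 40 was higher, Nkd2, at 1.69 (1.40 to 2.03). Without linked barcodes it was at 1.37, and another member was higher and 1 lower. Nkd2 was at 0.863 in cluster 0 and 0.646 in cluster 6. In the FGF and hedgehog list 2 of 25 were higher (8.0%) and 0 lower. Its summed ratio was 1.06 (1.03 to 1.08), with 0.912 in cluster 0 and 0.904 in cluster 6. Fgfr4, an FGF receptor, was at 1.79 (1.30 to 2.47), with 1.20 in cluster 0 and 0.79 in cluster 6. Of 26 limb and trunk factors 1 was higher and 2 lower (1 and 0 without linked barcodes), and of 22 factors of the face and branchial arches 0 and 1. Tbx2, a T-box factor of limb and organ buds, was at 1.59 (1.34 to 1.89), and at 1.45 net of cluster 0 and 1.42 net of cluster 6. Lmx1b was at 0.642 (0.573 to 0.718) and Pax3 at 0.654 (0.554 to 0.769), while cluster 0 had them at 1.08 and 1.42 and cluster 6 at 1.02 and 1.43. Of 18 early fetal growth genes 1 was lower and 0 higher (3 and 1 without linked barcodes). Lin28b, which restrains let-7 microRNAs, was at 0.661 (0.528 to 0.823), with 0.947 in cluster 0 and 0.659 (0.53 to 0.816) in cluster 6, and Hmga1 at 0.675 (0.556 to 0.816).

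Marker lists of other cell types had summed levels below 1. The ratios in cluster 1 were 0.778 (0.739 to 0.818) for neuron markers and 0.837 (0.781 to 0.897) for epithelial markers, and the 8 other-cell lists lay between 0.778 and 0.896. In cluster 0 they lay between 0.882 and 1.10, and 6 of the 8 were below 1 there too, such as muscle markers at 0.882 beside 0.859 in cluster 1 and white blood cell markers at 0.897 beside 0.881. Of the neuron markers 3 of 12 tested were called lower (25%), and of the epithelial markers 3 of 9 (33.3%), beside 5.39% of all genes tested. Without linked barcodes 4 of each list were lower. Lower calls numbered 3 of 9 neural progenitor and glia markers (1 without linked barcodes), 1 of 9 muscle markers (0), 2 of 8 red blood cell markers (3) and 0 of 10 endothelial markers (2). The muscle list went both ways, since 1 of its 9 markers was called higher. Without linked barcodes 1 muscle marker was higher and 0 lower. No marker of these lists was at 0 fragments in either library. Neuron markers went from 831 to 646 CPM, while cluster 0 had 2076 and 2089 CPM. In cluster 6 their summed ratio was 0.845 (0.81 to 0.882), and that of neural progenitor and glia markers was 1.11 (1.02 to 1.22), beside 0.843 in cluster 1. Cdh1, which joins epithelial cells, was at 0.623 (0.522 to 0.741), with 1.12 in cluster 0 and 0.676 (0.505 to 0.895) in cluster 6. Elavl3, an RNA-binding protein of neurons, was at 0.595 (0.454 to 0.773), with 0.932 and 0.864. Sox1, a factor of neural progenitors, was at 0.504 (0.333 to 0.748), with 0.854 and 1.16. The part of these markers in the shifts above was not tested.

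The other lists had 0 to 2 members past the fold in either direction, and over all genes tested 2.3% were higher and 5.39% lower. Called higher and lower were 1 and 0 of 16 osteoblast genes (0 and 0 without linked barcodes) and 1 and 1 of 17 cartilage genes (0 and 1). They were 0 and 2 of 12 tendon genes, or 16.7% lower (0 and 1 without linked barcodes), and 1 and 1 of 21 skin and fascia fibroblast genes (1 and 2). None of 16 fat lineage, 26 cell cycle, 7 cell cycle inhibitor and 17 retinoic acid genes was called, with or without linked barcodes. Calls numbered 0 and 1 of 15 smooth muscle and pericyte genes (1 and 1 without linked barcodes) and 1 and 0 of 15 glucocorticoid genes (0 and 0). Of 16 immediate early genes 0 and 2 were called (0 and 1 without linked barcodes), and of 21 stromal immune signals 1 and 1 (0 and 1). Col13a1, a membrane collagen in the osteoblast list, was at 1.59 (1.47 to 1.72) and at 1.35 without linked barcodes, with 0.936 in cluster 0 and 1.33 (1.17 to 1.52) in cluster 6. Scx, a tendon factor, was at 0.652 (0.458 to 0.917) in cluster 1, 1.5 (1.03 to 2.21) in cluster 0 and 0.912 (0.47 to 1.7) in cluster 6. Clec3b, a plasminogen-binding matrix protein, was at 1.77 (1.30 to 2.42), with 0.708 in cluster 0 and 0.617 in cluster 6.

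By the size of shift rather than by list, Slc22a20, an organic anion transporter, was at 3.21 (2.28 to 4.59), with 0.602 in cluster 0 and 1.35 in cluster 6. It went from 48 to 117 fragments, and 22.2% of the 117 came from 1 nucleus. The genes in this paragraph were chosen as extremes of the cluster 1 ratio with a net shift past the fold. Their ratios are therefore descriptions of what the selection found. Cp, the copper-binding ceruloplasmin, was at 2.72 (2.06 to 3.60), with 0.851 in cluster 0, 0.893 in cluster 6 and 31.3% of the E15.5 fragments in 1 nucleus. Entpd2, which breaks down extracellular ATP, was at 2.29 (1.74 to 3.01), and 2.37 without linked barcodes. It was at 1.40 in cluster 0 and 1.66 (1.06 to 2.57) in cluster 6, so that net of cluster 6 it was at 1.38. Pla2g4d and D130043K22Rik were at 2.27 and 2.09, but 107 of 176 and 142 of 227 E15.5 fragments lay in linked barcodes, and without them the ratios were 0.924 and 0.812. Kdf1, a factor of skin epithelium, had the lowest ratio of the genes named. It went from 94 fragments in 36 nuclei to 11 in 8 nuclei, a ratio of 0.154 (0.0744 to 0.288), with 0.90 in cluster 0. Tuba8 was at 0.286 (0.174 to 0.452) and Htr7, a serotonin receptor, at 0.399 (0.299 to 0.527), and their ratios changed little without linked barcodes.

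Promoters (1000 bp upstream to 100 bp downstream of a start, at least 40 fragments) were called higher in 429 of 10541 (4.07%) and lower in 870 (8.25%). Without linked barcodes they were 371 (3.54%) and 855 (8.16%) of 10477. With all nuclei, 16 of the 429 and 50 of the 870 had an interval wholly past the fold. The split depended on the scaling. Scaled by promoter fragments, 33.0% of the calls were higher. Scaled by all autosomal fragments, 1199 were higher and 435 lower, so that 73.4% were higher. With nuclei thinned to 20000 fragments, 485 of 6687 promoters tested were higher and 463 lower, so that 51.2% of the calls were higher. The promoters named next were chosen as extremes of the cluster 1 ratio. Several held just over the minimum of 40 fragments, mostly from the library where they were high. Their ratios are therefore descriptions of what the selection found. Car3, a carbonic anhydrase of muscle and fat, went from 9 to 35 fragments, 8 of the 35 from 1 nucleus. Its ratio was 4.53 (2.13 to 10.7), with 0.704 in cluster 0 and 1.61 (0.739 to 3.47) in cluster 6. Trpv4, a calcium channel of cartilage and other stroma, was at 3.84 (1.85 to 8.74). Cebpd, a C/EBP factor of early fat cell differentiation, was at 2.39 (1.58 to 3.70), with 0.49 in cluster 0, and had no fragment from linked barcodes. In cluster 6 this promoter was at 3.0 (1.17 to 8.24), from 8 and 14 fragments, so that net of cluster 6 it was at 0.799. Mboat2 went from 72 to 14 fragments, a ratio of 0.226 (0.118 to 0.405), Shisa3 from 42 to 7 and Cdh3, an epithelial cadherin, from 39 to 7. In cluster 0 these 3 were at 1.11, 0.887 and 1.22. In cluster 6 they were at 0.697, 0.62 and 0.856, from 27 and 11, 11 and 4, and 6 and 3 fragments.

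Distal bins (1 kb, over 1 kb from every annotated start, at least 30 fragments) were tested in 23659 of 2248325. Of these 6823 were higher (28.8%) and 3517 lower (14.9%), but the interval was wholly past the fold for only 1068 and 198 of them. Most called bins thus lay within counting error of the fold, and the motif shares below use all of them. Without linked barcodes 6556 (29.4%) and 2977 (13.4%) of 22277 were called. The median log2 ratio over tested bins was 0.19, so shifts are best read against it. Scaled by the median of ratios, 4893 bins were higher and 4942 lower, or 49.8% higher against 66.0% by the main scaling. Bins nearest to collagen and matrix genes were higher in 121 of 303 (39.9%) and lower in 29 (9.57%), and without linked barcodes in 115 and 25 of 286. Those nearest to Hox genes were higher in 7 of 34 (20.6%) and lower in 9 (26.5%), and without linked barcodes in 7 and 8 of 31. Over all tested bins the mean level went from 4.72 CPM to 5.58 CPM. Col1a1 was the nearest gene of 34 bins, of which 16 were higher and 2 lower, and the summed ratio was 1.47 (1.37 to 1.59). Col6a2 had 16 bins, of which 8 were higher and 1 lower. Other genes of matrix proteins differed. Fbln2 had 0 higher and 3 lower of 9 bins (summed ratio 0.749), Col3a1 1 and 1 of 8 (1.05) and Sparc 0 and 3 of 7 (1.06). These bins are given for cluster 1 only.

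Among the bins with the largest shifts by counts, those high with all nuclei rested mostly on linked barcodes, except the bin near Ktn1 (13 of 34 fragments at E15.5). The bin near Kctd3, for example, had 0 fragments at E13.5 and 37 at E15.5, all 37 from linked barcodes. The bins named next were chosen without those barcodes, after their values were seen. They are extremes of the tested bins, and most held just over the minimum of 30 fragments, nearly all from the library where they were high, so their ratios are descriptions of what the selection found. The bin near Tbx5, a heart and forelimb factor, 21.2 kb upstream, went from 3 to 29, a ratio of 13.4 (4.14 to 68.6). The bin near Gas1, a hedgehog co-receptor, 141 kb upstream, went from 4 to 35, a ratio of 12.1 (4.33 to 46.9). Lower bins lay near Lrrc52 (33 to 1 fragments), Tgfb2 (33 to 1) and Adamts16 (35 to 1). A bin near Wnt10a, a Wnt ligand of skin and bone, 2.02 kb upstream, went from 29 to 2, and one near Smim23 from 41 to 3.

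The 300-bp windows with the most insertions in 2 higher and 3 lower bins are shown (build mm10, plus strand). They were picked because most of them carry the letters whose shares differed between higher and lower bins. They are therefore examples and no measure of those shares. Capitals mark matches, on either strand, to the palindromic E-box CAGCTG, the E-box of SNAI/ZEB type spelt CACCTG, the nuclear factor I letters TTGGCA and the HOX-PBX letters TGATTNAT. Of the bins named without linked barcodes, only the lower ones near Lrrc52 and Wnt10a and the higher one near Rin3 carry CACCTG or its reverse. The lower windows near Wnt10a and Smim23 also carry CAGCTG. The first 2 windows shown were higher at E15.5, and the others lower. They lie at chr5:119811391-119811690, chr13:60318668-60318967, chr1:167532654-167532953, chr1:74789089-74789388 and chr11:32883625-32883924, all intergenic.
Tbx5 window: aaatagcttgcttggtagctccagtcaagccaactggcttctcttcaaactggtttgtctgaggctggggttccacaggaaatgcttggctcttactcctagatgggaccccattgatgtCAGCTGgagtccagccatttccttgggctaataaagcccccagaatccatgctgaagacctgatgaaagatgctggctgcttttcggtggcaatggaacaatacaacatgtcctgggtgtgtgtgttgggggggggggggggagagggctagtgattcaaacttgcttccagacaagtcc
Gas1 window: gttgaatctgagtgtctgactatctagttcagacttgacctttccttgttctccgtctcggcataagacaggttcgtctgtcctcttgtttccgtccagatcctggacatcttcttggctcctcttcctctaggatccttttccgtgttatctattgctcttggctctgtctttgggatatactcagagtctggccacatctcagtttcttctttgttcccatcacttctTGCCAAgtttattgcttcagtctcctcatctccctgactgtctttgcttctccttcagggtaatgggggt
Lrrc52 window: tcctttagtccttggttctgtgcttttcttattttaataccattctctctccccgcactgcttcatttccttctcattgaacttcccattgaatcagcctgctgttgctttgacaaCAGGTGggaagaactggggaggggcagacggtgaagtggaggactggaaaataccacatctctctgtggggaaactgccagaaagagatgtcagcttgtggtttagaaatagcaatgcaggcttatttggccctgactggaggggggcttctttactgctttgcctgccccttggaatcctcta
Wnt10a window: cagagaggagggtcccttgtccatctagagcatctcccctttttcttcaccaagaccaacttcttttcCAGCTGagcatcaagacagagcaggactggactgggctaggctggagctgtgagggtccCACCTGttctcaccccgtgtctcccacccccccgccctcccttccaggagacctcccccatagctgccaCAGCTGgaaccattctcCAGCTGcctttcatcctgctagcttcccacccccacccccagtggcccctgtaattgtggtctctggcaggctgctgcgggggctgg
Smim23 window: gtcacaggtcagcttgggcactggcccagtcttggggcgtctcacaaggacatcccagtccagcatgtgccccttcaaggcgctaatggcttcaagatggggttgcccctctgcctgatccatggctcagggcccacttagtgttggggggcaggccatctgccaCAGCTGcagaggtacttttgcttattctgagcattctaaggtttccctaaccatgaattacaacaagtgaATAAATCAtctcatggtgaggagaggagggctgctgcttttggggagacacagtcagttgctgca

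**Figure D4:**
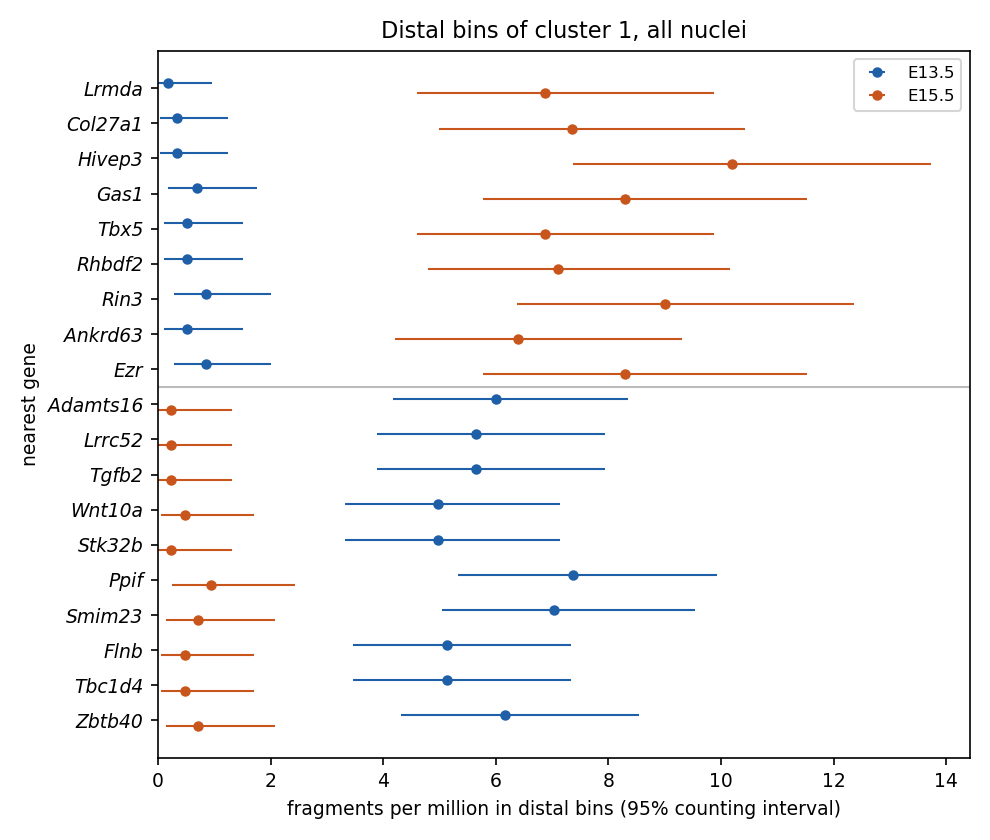
Points are fragments per 1000000 fragments in distal bins at E13.5 (blue) and E15.5 (orange), with 95% counting intervals, all nuclei, for 19 of the 20 bins named without linked barcodes. The y axis gives the nearest gene. The 9 upper bins were higher at E15.5 and the 10 lower bins lower.

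The shares of E-box letters differed between higher and lower bins. The letters CACCTG, read on either strand and bound by the SNAI and ZEB zinc-finger repressors and by some basic helix-loop-helix factors, lay in 13.6% of higher windows, 25.5% of lower windows and 18.3% of all windows tested. In the bins called both with and without linked barcodes, with the windows unchanged, the shares were 12.6% and 26.2%. The median GC content was 51.7% in higher and 52.7% in lower windows. In windows of low, middle and high GC content the shares in higher and lower bins were 11.03% and 17.5%, 13.1% and 26.7%, and 17.4% and 31.4%. Higher windows held a median of 49 insertions and lower ones 42. Among all 2080 hexamers (with their reverse), it had the largest difference in percentage points toward lower windows. In cluster 0's own tested bins, the letters were in 26.6% of higher and 26.9% of lower windows. Bins with the letters were higher in 21.5% and lower in 20.7% of 4322, while the other 19337 bins were higher in 30.5% and lower in 13.6%.

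The palindromic E-box CAGCTG, bound by other basic helix-loop-helix factors, leaned the other way, with 31.3% of higher, 25.7% of lower and 27.9% of all windows. Of the 2080 hexamers it had the largest difference in percentage points toward higher windows, and in cluster 0 it was at 24.9% and 26.9%. The HOX-PBX letters were in 3.06% of higher and 5.03% of lower windows (3.31% and 3.13% in cluster 0). The nuclear factor I letters TTGGCA were in 24.1% and 21.0% (16.7% and 16.4% in cluster 0), and the C/EBP letters in 46.01% and 41.7%, with 39.5% and 35.9% in cluster 0. The letters AGGGGG, labelled CTCF core, are a short G-rich run found in 30.2% of all windows, so a match does not mark a CTCF site. They were in 26.6% and 32.1%, with 30.2% and 32.9% in cluster 0. STAT letters were in 9.83% and 7.65%. TEAD letters (GGAATG), bound by partners of YAP, were in 20.7% and 20.8%. Motifs were searched on both strands, and the windows often hold more than 1. A match is a description of letters and not of binding.

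**Figure D5:**
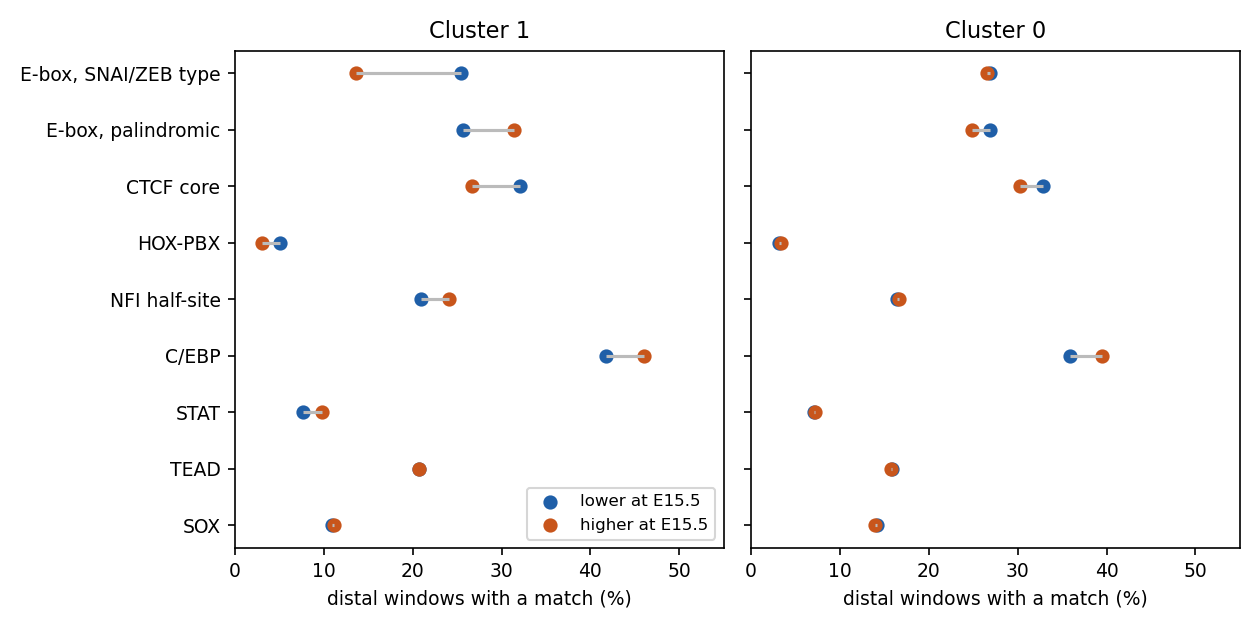
Points are the percent of 300-bp distal windows that hold a motif, for bins higher (orange) and lower (blue) at E15.5, in cluster 1 (left) and cluster 0 (right). The E-box of SNAI/ZEB type was in 13.6% of higher and 25.5% of lower windows in cluster 1, and in 26.6% and 26.9% in cluster 0.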

How the data were processed

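Unique fragments were read from the deposited fragment files, whose counts give the read pairs behind each fragment. Per the labels, the authors used Cell Ranger ATAC 2.0.0, Seurat 4.1.0 and Signac 1.6.0 with mm10. The study's methods describe clusters from integrating the nuclei with the spatial profiles (Seurat anchors, Harmony), but do not say whether the deposited cluster numbers are these. In all, 20 columns of the cell table were not used. Autosomal protein-coding genes (GENCODE vM21, 20483 after leaving out Pcdh and Ugt genes and spans over 500 kb), promoters and 1 kb distal bins were counted per cluster and library. Fragments were scaled by the total of their class (CPM, per 1000000). Ratio intervals are exact Clopper-Pearson, and net intervals are exact conditional, or log-normal where all 4 counts were over 300. A count of 0 allows 3. Named features had a net shift past 1.5-fold (bins excepted) and an interval whose bound nearest to 1 lay farthest from it, at most 12 genes, 8 promoters and 10 bins per direction. A few genes and a distal bin are not reported here. Doublets were not removed. Amplified fragments are not independent samples, so all intervals cover counting error only. The cluster, the 31 gene lists and the 29 motifs were chosen with earlier results of these data known. Python 3.11.15, numpy 2.4.6 and scipy 1.17.1 were used, and the ratio step was tested on simulated data. Alternatives covered scaling, minimums, depth, linked barcodes, windows and bin size.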

Additional observations from a re-analysis of the deposited data

Results flagged for a closer look

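The ratios of 4 list genes with at least 20 fragments in cluster 0 moved past 1.5-fold in opposite directions in clusters 1 and 0, and this difference was not tested, since each stage had 1 library. The shift in cluster 1 over that in cluster 0 was 2.38 for Col1a1, 0.397 for Mfap5, 2.91 for Myh6 and 0.277 for Hoxd10. Net of cluster 6 the same shifts were 1.20, 0.754, 1.48 and 0.948, none of them past 1.5-fold. Hoxd10 had 17 and 73 fragments in cluster 0. Myh6, a heart muscle myosin, had 71 and 86 fragments in cluster 1, of which 17.4% at E15.5 came from 1 nucleus. Y chromosome fragments, which the comparisons leave out, were at 293 CPM of all fragments in cluster 1 at E13.5, 120 CPM at E12.5 and 122 CPM at E15.5.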

How the results depend on the processing

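No paired analysis was possible because each stage had 1 library, and no replicate could be left out. The number of features tested changed with the setting. With 4 times the minimum count, 76 genes were higher and 132 lower of 7809 tested, and 63 promoters higher and 57 lower of 4782. Of 862 bins, 208 were higher and 18 lower, and net of cluster 0, 298 genes were higher and 325 lower of 7281. With minimums of 20 fragments for promoters and 15 for bins, 670 of 12495 promoters were higher and 1659 lower. Of 107438 bins, 33130 were higher and 27499 lower. With nuclei thinned to 20000 fragments, 381 of 10241 genes were higher and 414 lower (47.9% of the calls higher). Of 6687 promoters 485 were higher and 463 lower (51.2% of the calls higher), and of 2274 bins 801 were higher and 149 lower. Scaled by all autosomal fragments, 1199 promoters were higher and 435 lower. Bins of 500 bp gave 4447 higher and 1408 lower of 13422, and bins of 5 kb 17407 and 20506 of 86211. Without the nucleus with most fragments in each feature (chosen after seeing the data), 4500 of 15685 bins were higher and 2275 lower. Without linked barcodes (also chosen after seeing the data), Pla2g4d was at 0.924, D130043K22Rik at 0.812 and the bin near Gzf1 at 0. Of 67 genes, named or called in a list, whose ratio net of cluster 0 was past 1.5-fold, 46 were also past it net of cluster 6, and Pdgfra went from 2.10 to 0.943. Of the 31 lists, 13 had a summed level above 1, and 13 to 18 did under the alternatives. Over 217 list sums under alternatives, 200 stayed within the counting interval, and 15, in 7 lists, lay on the other side of 1. Of 2248325 distal bins, 23659 held at least 30 fragments and the others were not compared.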
